A study of Mus musculus with 10 samples.

Results

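The genes described here number 36 of the 25006 listed in the count tables. They encode the protein-folding machinery of the endoplasmic reticulum (ER) and the signalling that responds when folding fails. They were chosen by symbol from a list of known genes and not by a rule on their levels, but with earlier results of these data known. By role they fall into 14 chaperones and folding enzymes, 9 genes of protein translocation, 4 of ER-associated degradation, 3 stress sensors, and 6 stress transcription factors and their targets. All 36 were matched to a listed Ensembl identifier. Of these, 33 had a mean of at least 1 CPM (library counts scaled to a total of 1000000) over all neurons. Edem1, Ern1 and Trib3 did not. Of all listed genes 47.7% reached that mean, and 41.6% had 0 counts in every neuron, against 1 of the 36, Ern1.

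The series holds 10 libraries, each made from the cytoplasm and nucleus of 1 neuron drawn into a glass pipette from a brainstem slice of the nucleus of the solitary tract. The mice were 3 months old, of the C57BL/6 strain, and carried LepRb-Cre and Halo-eYFP, so that cells with leptin receptor promoter activity fluoresce, and neurons of both groups share these alleles. The labels group 5 neurons as type 1 (1-1, 1-2, 4-3, 8-2 and 9-1) and 5 as type 2 (6-2, 10-1, 10-3, 9-2 and 9-4) by firing property, and values below are listed in that order. A Cre reporter marks cells in which the promoter was active at any earlier time. Because each library is 1 cell and no animal is named, each firing type counts as 1 sample. Differences are therefore described beside the spread between neurons (SD, n = 5 per type), without a test.

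Secretory proteins, among them the precursors of neuropeptides, enter the ER through the Sec61 channel while they are being made. Signal peptidase removes the leader peptide, chaperones and disulphide isomerases fold the chain, and chains that fail to fold are sent back to the cytosol for degradation. Unfolded chains activate the sensors IRE1 (encoded by Ern1), PERK (Eif2ak3) and ATF6. Downstream of them, the transcription factors XBP1, ATF4 and cleaved ATF6 raise the transcription of chaperones, degradation factors and, under lasting stress, of Ddit3, which encodes CHOP. In peptide-secreting neurons the same machinery carries the normal load of prohormone.

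The promoters of the chaperone genes are printed first, because many of them share a known stress-response motif. RefSeq promoter windows on GRCm38.p6, from 250 bases before the annotated start to 50 after it, were matched by symbol for 31 of the 36 genes. Sec61a1, Ssr2, Atf6, Manf and Hyou1 had no window. The ER stress element (ERSE) was searched on both strands as CCAAT, 9 bases of any kind, then CCACG. It was present in 8 of the 31 genes (25.8%), against 37 of 27025 genes with a window (0.137%). It was also present in 1 of 94 other genes of ER folding, its stress response and neighbouring pathways, listed for comparison (1.06%). Because the 36 genes were listed as known genes of ER folding and its stress response, this and the motif shares that follow describe the list. They are not a test. Of the 8 genes, 7 encode chaperones or folding enzymes and the other is Syvn1. The whole window of Hspa5, the gene of the main ER chaperone BiP, at chr2:34771840-34772139 on the plus strand, carries its ERSE 65 bases upstream of the start, with the fixed letters in capitals.
Hspa5 promoter: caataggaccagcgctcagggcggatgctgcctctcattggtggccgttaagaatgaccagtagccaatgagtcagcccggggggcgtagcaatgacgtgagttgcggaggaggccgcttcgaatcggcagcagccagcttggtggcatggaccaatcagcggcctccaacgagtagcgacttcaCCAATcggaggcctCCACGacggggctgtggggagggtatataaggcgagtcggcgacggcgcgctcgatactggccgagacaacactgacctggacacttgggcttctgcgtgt

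The other ERSE matches are shown with 6 flanking bases on either side, each 5′ to 3′ on the strand of its gene, so that a match on the opposite strand reads CGTGG then ATTGG. Hsp90b1 had an ERSE on each strand, at chr10:86705632-86705662 and chr10:86705527-86705557. The remaining windows lie at chr8:84847069-84847099 (Calr), chr11:50325794-50325824 (Canx), chr12:17266485-17266515 (Pdia6), chr14:118937821-118937851 (Dnajc3), chr15:88819514-88819544 (Creld2) and chr19:6046526-6046556 (Syvn1).
Hsp90b1, far match: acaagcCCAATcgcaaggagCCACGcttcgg
Hsp90b1, near match: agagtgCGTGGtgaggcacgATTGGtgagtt
Calr: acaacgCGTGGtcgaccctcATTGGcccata
Canx: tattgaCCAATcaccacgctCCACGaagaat
Pdia6: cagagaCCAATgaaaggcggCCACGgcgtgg
Dnajc3: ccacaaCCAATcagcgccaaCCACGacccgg
Creld2: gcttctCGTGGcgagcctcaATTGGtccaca
Syvn1: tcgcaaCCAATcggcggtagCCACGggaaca

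Allowing 1 of the 10 fixed letters to differ, 14 of the 31 genes (45.2%) had a match, against 1.72% of all genes with a window. Those added by this looser search were Pdia3, Pdia4, Herpud1, Ddit3, Sec61g and Sel1l. The shorter ERSE-II (ATTGG, 1 base of any kind, then CCACG) shares its last letters with the ERSE. Among the members it was found only in Herpud1 (3.23% of the 31, against 0.0444% of all genes), at chr8:94386371-94386393. The letters of the amino acid response element bound by ATF4, TGATGNAA, were in Chac1, Trib3, Asns and Herpud1 (12.9% of the 31), against 4.51% of all genes. TGACGTGG, a site of XBP1 and ATF6 that also contains the complement of CCACG, was in none of the 31 windows. It was in 7 of the 94 other genes listed for comparison (7.45%) and in 0.714% of all genes. The Asns match lay close to the start, at chr6:7693219-7693238.
Herpud1, ERSE-II: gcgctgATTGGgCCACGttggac
Asns, ATF4 site: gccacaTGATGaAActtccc
Chac1, ATF4 site: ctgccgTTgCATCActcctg

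**Figure D1:**
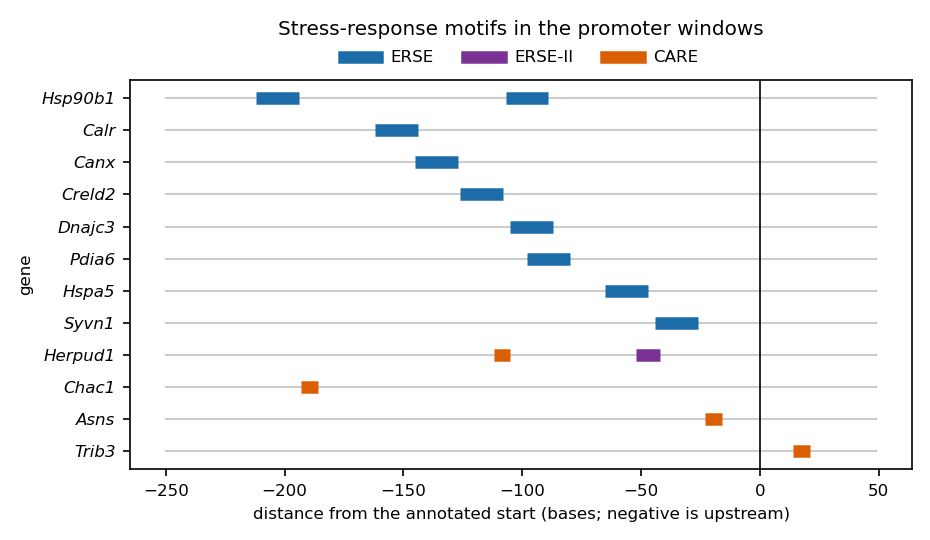
Positions of motif matches in the promoter windows of 12 genes, in bases from the annotated start (negative is upstream), with ERSE, ERSE-II and the ATF4 site (CARE) coloured separately. The ERSE matches of 8 genes all lie upstream of the start, and the Trib3 match lies downstream of it.

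The libraries differed in depth and content. Totals ran from 9796799 counts in 4-3 to 41844825 in 8-2, and a gene counts as detected from 10 CPM upwards, provided 3 counts were seen. The number of the 36 genes detected was 20 in 4-3 and 21 in 9-1, both type 1, and 25 to 28 in the other 8 neurons. The 12 neuronal markers summed to 7775 to 11766 CPM in type 1 neurons and to 7805 to 11630 CPM in type 2, and all 12 were detected in at least 1 neuron. Among the marker sums of other cells, only that of astrocytes separated the firing types. The 14 microglial markers summed to 0.0668 to 807 CPM in type 1 neurons and to 4.25 to 1846 CPM in type 2, highest in 6-2 (1846 CPM), 9-4 (1685 CPM), 1-2 of type 1 (807 CPM) and 9-2 (524 CPM), and none of the 14 was at 0 throughout. Of 12 astrocyte markers, Slc1a3 and Gjb6 had 0 counts in every neuron and 5 were undetected throughout, while the sum was 589.6 to 1475 CPM in type 1 neurons and 2343 to 4437 CPM in type 2, carried by Aldoc and Cst3. Oligodendrocyte markers summed to 2.00 to 1053 CPM and 39.2 to 220.2 CPM, with Olig2 and Sox10 at 0. Vascular and blood markers stayed at or below 27.6 CPM in sum, with Tek, Pdgfrb and Rgs5 at 0. The part of these cells' RNA in the results below was not tested.

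As a whole, the ER folding genes took a similar share of the RNA in both firing types. Their summed level averaged 5406 ± 2593 CPM over type 1 neurons and 5432 ± 1107 CPM over type 2 neurons (SD, n = 5 each). By neuron the sums were 9826, 5186, 3300, 4949 and 3770 CPM in type 1 neurons and 4287, 4169, 6062, 6430 and 6211 CPM in type 2. The type 1 neuron 1-1 stood highest and 4-3 lowest, and all of type 2 lay between them. The members made up 0.33 to 0.983% of a library in type 1 and 0.417 to 0.643% in type 2.

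Single genes varied more than this sum. Each difference below is the mean log2(CPM + 1) of type 2 neurons less that of type 1 neurons, a scale on which 1 is a 2-fold difference and which understates differences of low genes. Of the 33 genes compared, 11 were at least 2-fold higher in type 2 (33.3%, against 31.1% of all 11923 genes compared) and 4 at least 2-fold higher in type 1 (12.1%, against 21.6%). At 4-fold the counts were 3 (9.09%, against 13.5%) and 2 (6.06%, against 7.78%). The median difference of the 33 was 0.31, beside 0.24 for all genes compared. With TMM scaling of library sizes the medians were 0.53 and 0.39. In 5 genes, Calr, Ssr1, Ssr4, Eif2ak3 and Ddit3, the difference exceeded the SD between neurons of a type (15.2%, against 20.4% of all genes). The types did not overlap in 1 gene, Eif2ak3 (3.03%, against 1.44% of all genes), which had 0 counts in type 1 and only 3 to 6 counts in 3 type 2 neurons, so nothing is read from this count. None of the 33 was lower in every type 2 neuron than in every type 1 neuron (0.587% of all genes). The share towards type 2 lay near that of all genes and the share towards type 1 below it.

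**Figure D2:**
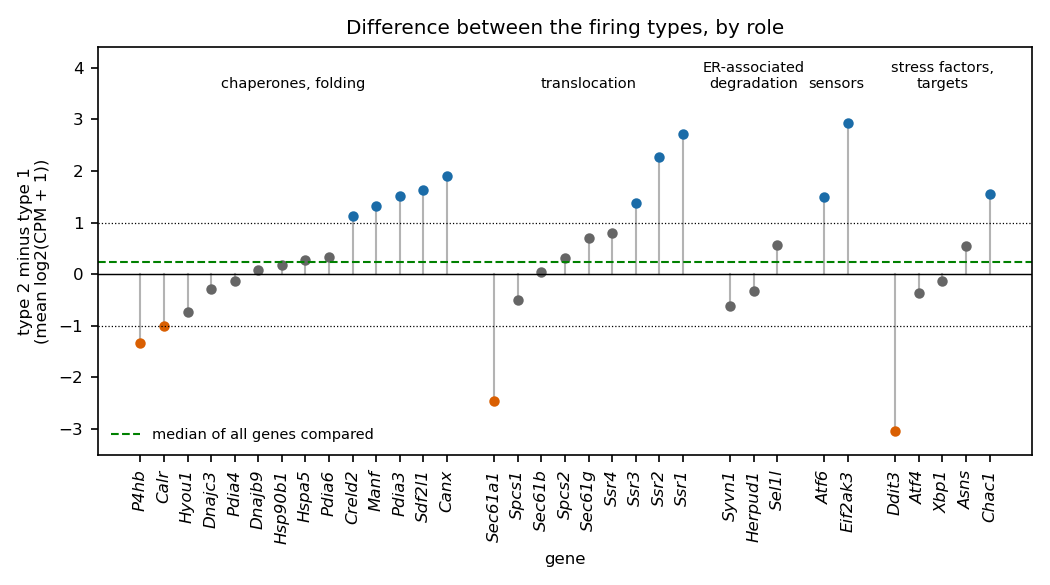
Difference in mean log2(CPM + 1), type 2 less type 1, for each of the 33 genes compared, grouped by role, with blue and orange points at least 2-fold higher in type 2 or type 1, dotted lines at 2-fold and a dashed line at the median of all genes (0.24). Points lie on both sides of 0 in every role except the sensors, from -3.03 for Ddit3 to 2.92 for Eif2ak3.

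Of the 15 genes past 2-fold, 5 stayed past it in the same direction whichever single neuron was left out: Sec61a1, Ssr1, Ssr2, Eif2ak3 and Ddit3. That is 33.3% of those past 2-fold, against 46.6% over all genes (2927 of 6287). Many of the genes were found in every neuron. In 13 of the 33 (39.4%) all 10 neurons passed the detection level, against 14.2% of all genes compared and 21.7% of the genes whose mean lay between 45.2 and 227 CPM, the middle range of the members. Several of the 13, among them Hspa5 and Hsp90b1 (means of 778 and 649 CPM), lay above that range. The 39.4% and 21.7% are therefore not matched for level. Most single values reached the detection level. Of 330 single values 54 (16.4%) were below 1 CPM, 18 (5.45%) between 1 and 10 CPM and 258 (78.2%) at 10 CPM or more, against 40.1%, 7.26% and 52.7% for all genes compared.

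**Figure D3:**
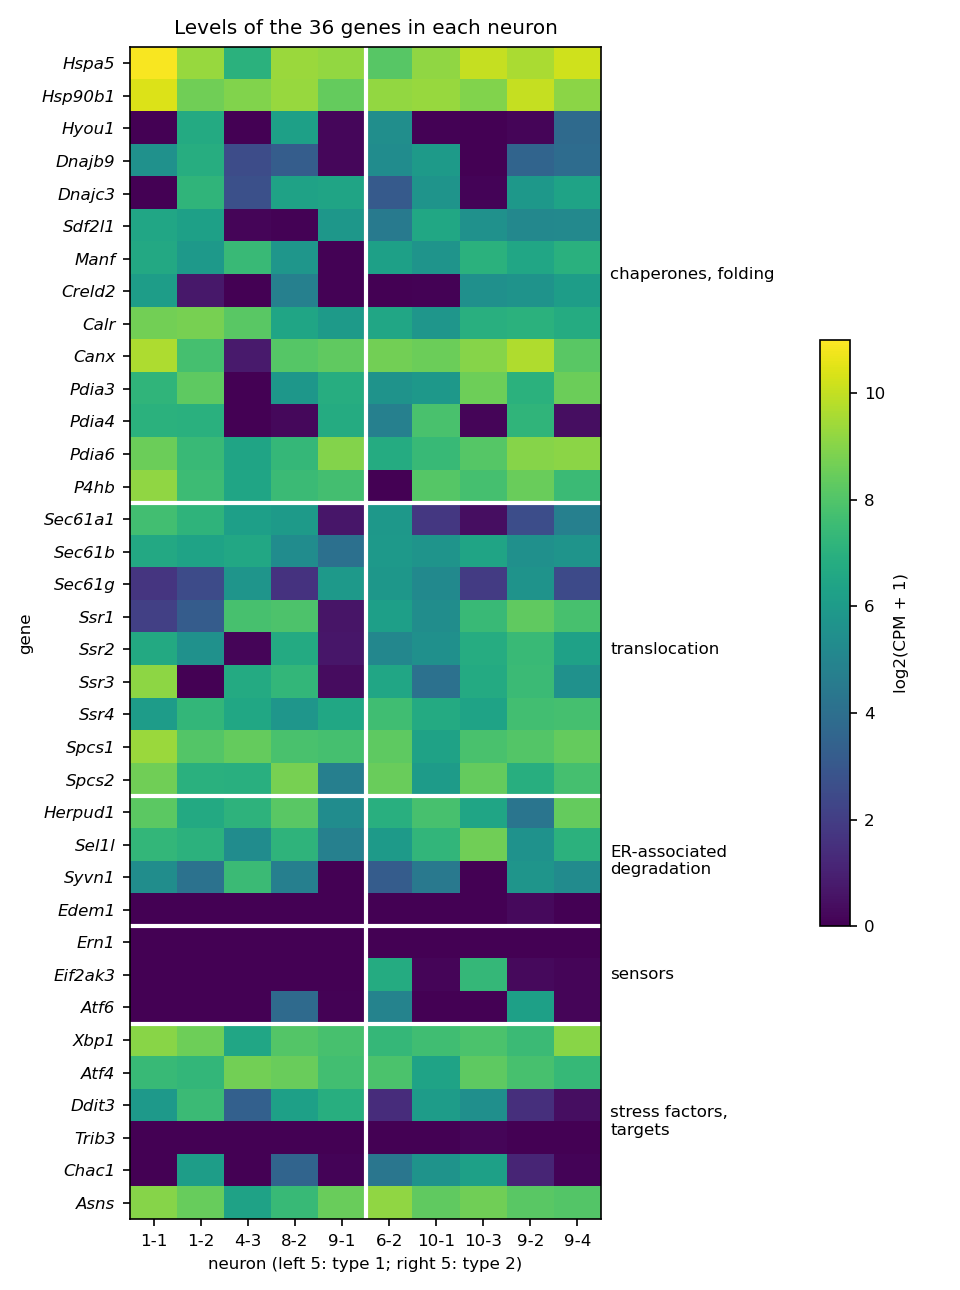
Heat map of log2(CPM + 1) for the 36 genes (rows, by role) in the 10 neurons (columns, type 1 on the left and type 2 on the right). Hspa5, Hsp90b1, Xbp1, Atf4 and Asns are bright in every column, the sensors are dark in most, and 4-3 and 9-1 have dark cells among the chaperones and translocation genes.

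Chaperones and folding enzymes. The main lumenal chaperones were abundant in every neuron of both types. Hspa5 (ENSMUSG00000026864, GRCm38 chromosome 2, 34771970 to 34777547, plus strand), which holds unfolded chains and keeps the sensors inactive, was at 1894, 638, 131, 651 and 597 CPM in type 1 neurons and at 278, 579, 1057, 786 and 1172 CPM in type 2. The ranges overlapped completely, with means of 782 ± 658 and 775 ± 362 CPM (difference 0.27). Hsp90b1, the ER paralogue of HSP90, was at 1364, 387, 488, 626 and 335 CPM and at 587, 628, 475, 1049 and 549.8 CPM (difference 0.18). For both, 1-1 was the highest neuron. Per kilobase of annotated exon, mean levels over all neurons were 184 CPM for Hspa5 and 161 CPM for Hsp90b1, against 3.26 to 40.8 CPM for the cochaperones and small lumenal factors Hyou1, Dnajb9, Dnajc3, Sdf2l1, Manf and Creld2.

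The lectin chaperones, which hold glycoproteins through their sugars, differed in opposite directions. Canx, the membrane-bound calnexin, was at 804, 214, 0.715, 272 and 319 CPM in type 1 neurons and at 402, 374, 516, 827 and 292 CPM in type 2. Its difference of 1.90 rested on 4-3, the only neuron in which it was undetected, and was 0.37 without that neuron. Calr, the soluble calreticulin, was at 401, 433, 286, 86.8 and 62.4 CPM in type 1 neurons and at 88.9, 54.2, 121, 131 and 107 CPM in type 2 (254 ± 173 against 100.4 ± 30.3 CPM). Calr was high in the 3 type 1 libraries under 20000000 counts and at the type 2 level in the others. Its difference lay at the 2-fold limit, was -0.78 with TMM scaling and was 0.41 among the 6 libraries over 20000000 counts.

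Of the disulphide isomerases 1 was found in every neuron and 3 were missing from some. Pdia6 was at 85.4 to 497 CPM in type 1 neurons and at 107 to 547 CPM in type 2 (difference 0.33). P4hb, the founding member of the family, was at 87.0 to 578 CPM in all neurons but 6-2, which had 0 counts, so that the difference was -1.33 and 0.26 without 6-2. Pdia3, which works with the lectin chaperones, had 0 counts in 4-3 and 49.8 to 382 CPM elsewhere, and its difference of 1.51 was 0.10 without 4-3. Pdia4 was at 109 to 131 CPM in 3 type 1 neurons, at 26.4 to 230.3 CPM in 3 type 2 neurons and below 1 CPM in 4-3, 8-2, 10-3 and 9-4 (difference -0.13).

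The smaller stress-inducible factors were patchier. Sdf2l1, which assists BiP, was at 90.5, 75.0, 0.102, 0.0478 and 55.9 CPM in type 1 neurons and at 21.6, 92.5, 47.0, 34.6 and 35.0 CPM in type 2. Mean levels were nearly equal (44.3 ± 42.2 and 46.1 ± 27.4 CPM), and the difference of 1.63 was 0.73 without 4-3 and 0.71 without 8-2. Manf, a secreted survival factor retained in the ER, was at 50.8 to 174 CPM in all neurons except 9-1 (0.0319 CPM), and its difference of 1.32 was 0.04 without 9-1. Creld2 was detected in 2 type 1 and 3 type 2 neurons (mean log2 levels 2.34 and 3.47), and 6 of the 10 neurons took its difference below 1 when left out. Hyou1, Dnajb9 and Dnajc3 were detected in 2 and 2, 2 and 4, and 3 and 3 neurons (differences -0.74, 0.08 and -0.29). Of the 14 genes, 9 had the higher mean log2 level in type 2 (64.3%, against 56.2% of all genes), with a median difference of 0.22. By mean CPM 8 were higher in type 2 (57.1%, against 48.5% of all genes). The 8 genes with an ERSE did not share a direction: by mean log2 level 5 were higher in type 2 and 3 in type 1, with Calr and Canx at the ends and a median of 0.22.

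**Figure D4:**
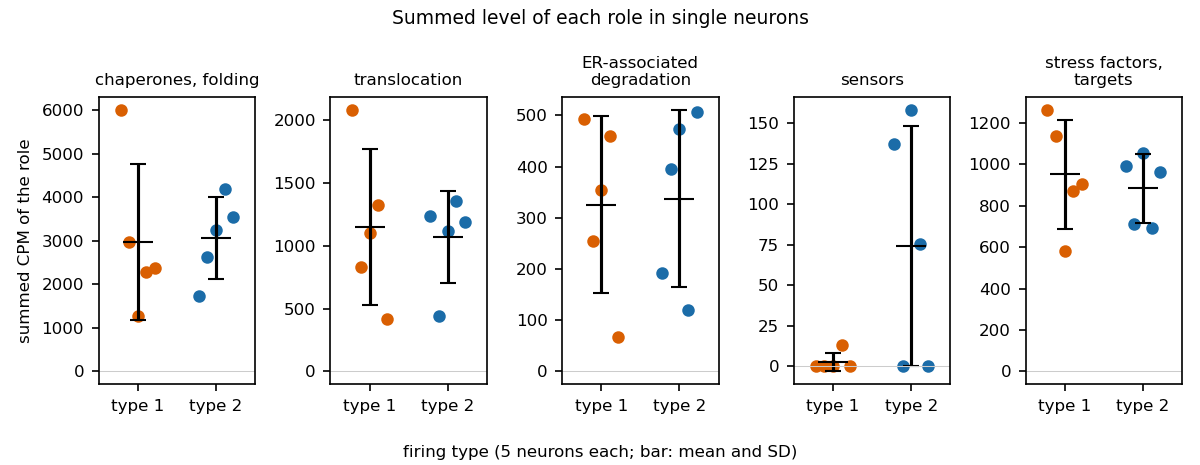
Summed CPM of each role in single neurons (points), with the mean and SD of the 5 neurons of a type (bars) and a separate linear axis for each role. Type 1 and type 2 overlap in every role, and the sensors lie at or near 0 in 4 type 1 and 2 type 2 neurons.

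Translocation. The 9 genes summed to 413 to 2075 CPM in type 1 neurons and to 439.9 to 1357 CPM in type 2, and 7 had the higher mean log2 level in type 2 (77.8%, against 56.2% of all genes), with a median difference of 0.70. By mean CPM 4 of the 9 were higher in type 2 (44.4%, against 48.5% of all genes). The median was -0.01 with ratios of mean CPM and 0.10 without 6-2, 9-2 and 9-4. Subunits of one complex did not move together. Sec61a1 (ENSMUSG00000030082, GRCm38 chromosome 6, 88503579 to 88518905, minus strand), the pore of the channel, was at 205, 143, 72.7, 62.0 and 0.574 CPM in type 1 neurons and at 57.2, 2.40, 0.331, 5.12 and 26.4 CPM in type 2. Type 1 was higher except for 9-1, and the difference was -2.45 (pooled over reads, 74.9 CPM, exact Poisson 95% interval 73.3 to 76.5, against 11.9 CPM, 11.4 to 12.5, covering counting error only). It was -0.92 among libraries over 20000000 counts. Within the neurons numbered 9 the order was the opposite, 0.574 CPM in 9-1 against 5.12 and 26.4 CPM.

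Sec61b, the small beta subunit, was detected in every neuron, at 15.5 to 99.8 CPM in type 1 neurons and at 44.3 to 85.2 CPM in type 2 (difference 0.05). Sec61g, the gamma subunit, was at 36.3 to 60.6 CPM in 4-3, 9-1, 6-2, 10-1 and 9-2 and at 2.10 to 4.76 CPM in the other 5 neurons. In 9-1, Sec61g was high while Sec61a1 was nearly absent.

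The 4 subunits of the translocon-associated protein complex, which helps particular signal peptides to open the channel, all had the higher mean log2 level in type 2. Ssr1 (ENSMUSG00000021427, GRCm38 chromosome 13, 37966605 to 37994217, minus strand) was at 3.27, 8.08, 222, 244 and 0.542 CPM in type 1 neurons and at 73.9, 41.5, 172, 319 and 220.4 CPM in type 2. Ssr1 was detected in 2 type 1 and 5 type 2 neurons, and its difference was 2.71, or 0.78 with a ratio of mean CPM. Ssr2 was at 100.4, 46.5, 0.102, 106 and 0.574 CPM and at 32.6, 44.4, 109.9, 173 and 76.4 CPM (difference 2.27, or 0.77 with a ratio of mean CPM and 0.71 with medians). Every type 2 neuron held both, whereas 3 of 5 type 1 neurons lacked Ssr1 and 2 lacked Ssr2 at the detection level.

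Ssr3 ranged from 0 in 1-2 to 568 CPM in 1-1 and from 16.1 to 181 CPM in type 2. Its difference of 1.38 changed sign, to -0.90, when mean CPM values were compared. Ssr4 was detected in all 10 neurons, at 53.4 to 156 CPM in type 1 neurons and at 82.5 to 217 CPM in type 2 (91.9 ± 39.7 against 161 ± 63.0 CPM, difference 0.80). Without 6-2, 9-2 and 9-4, the type 2 neurons with the most microglial RNA and the highest Ssr4 levels, the difference was 0.10. Neuron 9-1 had under 1 CPM of Ssr1, Ssr2 and Ssr3 and 91.5 CPM of Ssr4. The signal peptidase subunits Spcs1 and Spcs2 were detected in every neuron. Spcs1 was at 642, 264, 338, 229 and 217 CPM in type 1 neurons and at 310, 79.7, 228, 262 and 333 CPM in type 2 (difference -0.50). Spcs2 was at 388, 126, 122, 434 and 26.0 CPM and at 356, 65.3, 332, 119 and 217 CPM (difference 0.31). Both overlapped between types. Spcs1 shares exon bases with Glt8d1 on the opposite strand, and its reads cannot be told from those of that gene without the strand option.

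ER-associated degradation. Herpud1, which organises the degradation complex, was detected in all neurons, at 295, 103, 136, 292 and 39.7 CPM in type 1 neurons and at 122, 224, 87.6, 18.5 and 333 CPM in type 2 (173 ± 115 against 157 ± 123 CPM, difference -0.33). Sel1l, the adaptor of the ubiquitin ligase, was at 157, 134, 40.3, 141 and 26.9 CPM and at 63.1, 150, 386, 47.9 and 134 CPM (difference 0.57), also in all neurons. Syvn1, the ligase itself, was at 41.3, 16.8, 179, 25.8 and 0 CPM in type 1 neurons and at 8.12, 21.1, 0, 52.5 and 38.6 CPM in type 2 (difference -0.62). Edem1, which extracts mannose-trimmed glycoproteins, had counts in 9-2 alone, at 0.21 CPM. None of the 3 genes compared reached 2-fold.

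Stress sensors. The sensor genes were at or near 0 in most neurons. Ern1 (ENSMUSG00000020715, GRCm38 chromosome 11, 106394650 to 106487852, minus strand) had 0 counts in all 10 libraries. By counting alone that allows up to 3 counts, or 0.0717 CPM for 8-2 and 0.306 CPM for 4-3, and RNA lost before sequencing is not covered. As a share of neurons, 0 of 10 has an exact binomial 95% interval of 0 to 30.8%.

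Eif2ak3 (ENSMUSG00000031668, GRCm38 chromosome 6, 70844515 to 70905245, plus strand) had 0 counts in all 5 type 1 neurons and was at 107, 0.0961, 158, 0.21 and 0.0954 CPM in type 2. It was thus detected in 6-2 and 10-3 only (40.0% of type 2 neurons, exact binomial 95% interval 5.27 to 85.3%, against 0% of type 1 neurons, 0 to 52.2%). Its difference of 2.92 was the highest of the 33 genes, it passed the level filter through type 2 alone, and medians over neurons gave 0.28. Atf6 was at 12.9 CPM in 8-2 and at or below 0.0319 CPM in the other type 1 neurons, and at 29.6, 0, 0.0276, 75.5 and 0.0954 CPM in type 2 (difference 1.50). Without 6-2, 9-2 and 9-4, the 3 type 2 neurons with the highest microglial sums and Atf6 levels, the Atf6 difference was -0.75. Leaving out the highest values of type 2 had to lower it, and only 10-1 and 10-3 then remained in type 2. No neuron had all 3 sensors detected, 6-2 had both Eif2ak3 and Atf6, and 6 of the 10 neurons had none.

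Stress transcription factors and targets. Xbp1 (ENSMUSG00000020484, GRCm38 chromosome 11, 5520659 to 5525893, plus strand), whose messenger RNA is spliced by IRE1, was detected in every neuron, at 523, 385, 89.8, 267 and 225 CPM in type 1 neurons and at 159, 195, 234, 181 and 531 CPM in type 2 (difference -0.13). Gene counts do not separate its spliced and unspliced forms. Atf4, the factor translated when PERK or its relatives act, was at 168, 157, 402, 353 and 205 CPM and at 234, 82.9, 309.8, 221 and 162 CPM (difference -0.37). Asns, asparagine synthetase and a target of ATF4, was at 509, 345, 80.6, 169 and 358 CPM and at 582, 320.4, 394, 291 and 268 CPM (difference 0.54). All 3 overlapped between types, and no neuron lacked any of them.

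Ddit3 (ENSMUSG00000025408, GRCm38 chromosome 10, 127290774 to 127296288, plus strand), which encodes the stress factor CHOP, was the furthest towards type 1, at 60.8, 180.0, 9.49, 74.5 and 119 CPM against 1.64, 66.0, 43.4, 1.82 and 0.318 CPM. Detected in 4 type 1 and 2 type 2 neurons, it had means of 88.7 ± 64.2 and 22.6 ± 30.4 CPM and a difference of -3.03. The low type 2 neurons were 6-2, 9-2 and 9-4, which had the highest microglial sums of type 2, and without them the difference was -0.23. Leaving out the lowest values of type 2 had to shrink the difference, and only 10-1 and 10-3 then remained in type 2. Neuron 1-2 of type 1, with more microglial RNA (807 CPM) than 9-2, had the highest Ddit3 level of all 10. Whether microglial RNA had a part in this was not tested. Ddit3 shares exon bases with Mars on the opposite strand, which limits the certainty of its level. Hsp90b1, Manf, Pdia3, Pdia6 and Syvn1 likewise share exon bases with other counted genes. Chac1, a glutathione-degrading target of ATF4 and CHOP, was detected in 2 type 1 and 3 type 2 neurons, at 0, 69.6, 0, 10.5 and 0.0637 CPM and at 19.1, 49.8, 74.6, 1.23 and 0.0636 CPM (difference 1.55). Trib3, another CHOP target, had counts in 10-3 alone, at 0.11 CPM.

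Other genes of ER folding, its stress response and neighbouring pathways had the higher mean log2 level in type 2 somewhat more often than all genes did. Of 123 genes in 6 lists, 114 were compared, and 72 had the higher mean log2 level in type 2 (63.2%, against 56.2% of all genes). The median difference was 0.62 beside 0.24 for all genes. At least 2-fold higher in type 2 were 45 (39.5%, against 31.1% of all genes), and 17 in type 1 (14.9%, against 21.6%). The direction by mean CPM was not counted for these 114 genes. Among the 36 genes the share higher in type 2, of those compared, depended on the scale. It was 63.6% by mean log2 level and 51.5% by mean CPM (48.5% of all genes). By list the medians were 0.85 for other folding enzymes (10 of 22 at least 2-fold higher in type 2, 2 in type 1), 0.08 for other translocation genes (4 and 2 of 17) and 0.53 for N-glycosylation (4 and 2 of 15). They were 0.86 for other degradation genes (9 and 1 of 18), 0.69 for ER export (8 and 4 of 19) and 0.45 for other stress genes (10 and 6 of 23). In contrast the cytosolic heat shock genes had a median of -0.27 (3 and 4 of 15).

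The furthest genes of those lists partner the members above. Sil1, which recharges BiP with ATP, was at 52.4 ± 58.6 CPM in type 1 neurons and at 104 ± 41.2 CPM in type 2 (difference 2.59), and the BiP cochaperone Dnajb11 at 19.4 ± 28.6 and 102 ± 163 CPM (2.61). Sec11c, a catalytic subunit of signal peptidase, was detected in 3 and 5 neurons (52.9 ± 65.6 and 163 ± 91.8 CPM, difference 3.42). Kdelr2, a receptor that returns escaped chaperones to the ER, was at 44.9 CPM in 1-2 and below 1 CPM in the other type 1 neurons, but at 26.6 to 139 CPM in all of type 2 (difference 4.70). Ganab, the glucosidase that prepares glycans for Calr and Canx, was higher in type 1 (136 ± 138 and 17.5 ± 29.2 CPM, difference -3.77). The same rule named Herpud2, Srp9, Lman1, Ddost and Ube2j1, all higher in type 2 (differences 1.98, 2.21, 2.94, 3.09 and 3.43). Within type 1, neuron 4-3 held no counts for Dnajb11, Sec11c, Srp9, Ddost, Herpud2 and Ube2j1. Neuron 1-1 lacked counts for Sil1, Dnajb11, Sec11c and Herpud2. Sil1 in 4-3 (1.33 CPM) and Ddost in 9-1 (0.669 CPM) stood near 0. The type 2 mean of Dnajb11 leaned on 9-4 (389.8 CPM). Such values in single neurons carry part of these differences, which are not given here without those neurons.

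Among stress genes outside the 36, the kinase and transcription factor furthest apart lay in opposite directions. Eif2ak1, a haem-regulated kinase of the same substrate as PERK, was at 5.14, 0, 0, 0.0717 and 0.382 CPM in type 1 neurons and at 236, 149, 112, 45.2 and 53.9 CPM in type 2, with no overlap (difference 6.01). Atf3, a stress-induced factor that acts beside CHOP, was at 258, 269, 133, 48.6 and 3224 CPM in type 1 neurons and at 0, 5.10, 0, 1.02 and 68.3 CPM in type 2 (difference -6.14). Only 9-4 of type 2 exceeded the lowest type 1 neuron for Atf3.

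Over all 10 neurons the load of peptide RNA ranged more widely than the folding genes did. Within type 1 it did not, relative to its mean (9082 ± 3500 CPM, against 5406 ± 2593 CPM for the folding genes). The 23 peptide precursor and processing genes summed to 4918 to 13729 CPM in type 1 neurons and to 8072 to 33428 CPM in type 2, with galanin (Gal) at 3334 ± 1294 CPM in type 1 and proglucagon (Gcg) at 7658 ± 5851 CPM in type 2. The neuron with the most peptide RNA, 9-2 at 33428 CPM, held 6430 CPM of the 36 folding genes, and 4-3, with the least at 4918 CPM, held 3300 CPM. Neuron 1-1 stood apart, with the highest folding sum (9826 CPM) at 11489 CPM of peptide RNA. Over the 10 neurons the rank correlation of both sums was 0.72 (Spearman's rho, a description, since each pair of sums shares a library total and the neurons form separate types). The number of the 36 genes detected had a rank correlation of 0.77 with the number of all genes detected in the same library, and 0.33 with library total.

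**Figure D5:**
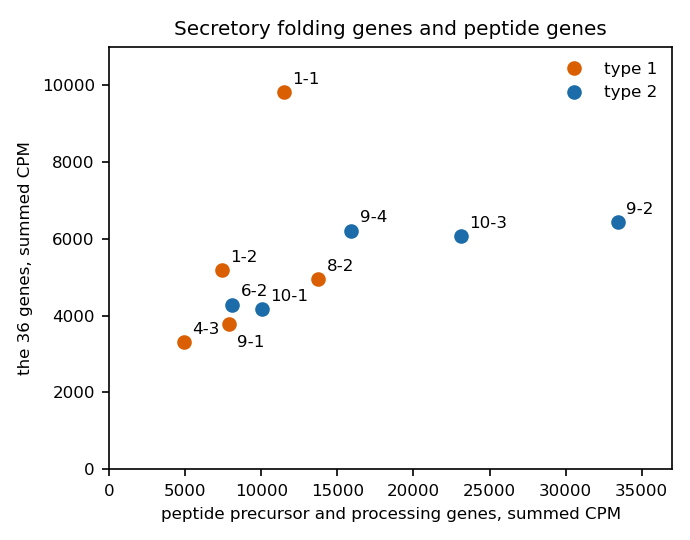
Summed CPM of the 36 folding and stress genes against summed CPM of 23 peptide precursor and processing genes, both on linear axes, 1 point per neuron. Type 2 neurons reach 33428 CPM of peptide RNA, while 1-1 of type 1 holds the highest folding sum, 9826 CPM.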

How the data were processed

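RNA of 10 single neurons was measured, 1 library each. The authors deposited 1 table per neuron that holds raw read counts for each Ensembl gene. Per the submitters' processing notes, cutadapt 1.13, STAR, HTSeq 0.6.1p1 and DESeq2 took part, and the build was mm10. How these steps were ordered, and which annotation, strand setting and amplification applied, is not given in the sources used here. No source used here names molecular identifiers, so intervals cover counting error only.

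From the counts, CPM was computed with library totals, and levels are log2(CPM + 1). Symbols, exon lengths and coordinates came from GENCODE M21 (GRCm38, the assembly of mm10), which named 24942 of 25006 identifiers. Annotated pseudogene copies of Calr and Spcs2 exist and can share reads with them. All 45 pairs of libraries differed by more than counting noise (chi-square at least 559 per degree of freedom). Each type counts as 1 sample, so no p-value was computed. Alternatives used edgeR 4.0.16 (TMM) and DESeq2 1.42.0 (size factors) for scaling only, in R 4.3.3. Calculations ran in Python 3.11.15 and were tested on simulated data.

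The genes and lists were chosen with earlier results of these data known. Values in every neuron are given for the 2 members of each role with the highest mean, the 2 that differ most among genes found in at least 3 neurons of a type, and Hspa5, the sensors, Xbp1, Atf4 and Ddit3. Other lists give up to 2 genes by the same difference rule, while values in single neurons for further members were chosen after they were seen.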

Additional observations from a re-analysis of the deposited data

Results flagged for a closer look

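In 8 of 76 groups of 5 neurons, 1 neuron lay so far from the next that its gap, as a share of the group's range of log2(CPM + 1), passed Dixon's 95% critical value of 0.71. Chance flags about 1 in 20 such groups. Within type 1, 9-1 was lowest for Manf (0.0319 CPM, gap share 0.776) and for Sec61a1 (0.574 CPM, 0.757). Neuron 4-3, the shallowest library, was lowest for Canx (0.715 CPM, 0.786). Neuron 8-2, the deepest, was highest for Atf6 (12.9 CPM, 0.988), and the summed sensor level of type 1 repeats that value (0.988). Within type 2, 6-2 was lowest for P4hb (0 counts, 0.887). Neuron 10-1 was lowest for Spcs1 (79.7 CPM, 0.736) and for the summed translocation genes (439.9 CPM, 0.829).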

How the results depend on the processing

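Of 825 values of single genes under the alternatives, 781 stayed within the SD between neurons and 28 moved further. The other 16 changed sign in genes past 2-fold, the only genes in which a change of sign was counted apart. Leaving out 1 neuron gave 330 of the 825 values, and it cannot shift a mean of 5 neurons by that SD. A change of filter leaves the difference of a gene as it is. The 781 is therefore no measure of stability. Under the other alternatives 452 of 495 values stayed within the SD, 28 moved further and 15 changed sign. Genes below 2-fold changed sign as well. Hyou1 went from -0.74 to 3.2 in libraries under 20000000 counts, where 6-2 is the only type 2 neuron. Syvn1 went from -0.62 to 5.53 in neurons numbered 9, where 9-1 is the only type 1 neuron. With medians over neurons Sdf2l1 was -0.66, P4hb 0.18 and Ssr3 -0.19, and with ratios of mean CPM Ssr3 was -0.90. In libraries over 20000000 counts Calr was 0.41, P4hb 0.33 and Atf6 -0.31, and in those under it Manf was -0.41 and Creld2 -2.28. In neurons numbered 9 Sdf2l1 was -0.67, Calr 0.91, P4hb 0.26 and Sec61a1 3.04. Without 6-2, 9-2 and 9-4 P4hb was 0.23 and Atf6 -0.75. Leaving out 1 neuron gave P4hb -1.85 to 0.26. The cause of these changes was not tested. The 11 genes at least 2-fold higher in type 2 became 4 with a pseudocount of 10 (12.1%, against 13.6% of all genes) and 2 with ratios of mean CPM (6.06%, against 23.8%). They became 5 with medians (15.2%, against 24.3%) and 3 at 4-fold (9.09%, against 13.5%). The 4 higher in type 1 became 2 with a pseudocount of 10 (6.06%, against 10.4% of all genes) and 2 at 4-fold (6.06%, against 7.78%). Leaving out 1 neuron gave 8 to 12 towards type 2 (24.2 to 36.4%, against 29.6 to 34.7% of all genes). Towards type 1 it gave 3 to 6 (9.09 to 18.2%, against 21.0 to 24.7%). In neurons numbered 9, with 9-1 alone in type 1, the median difference was 0.95 over the members, beside 0.09 for all genes. There it was 2.58 for translocation and 1.54 for degradation. The degradation median was 1.16 in libraries over 20000000 counts. The sensors, at 2.21 over 2 genes, were 4.19 with ratios of mean CPM, 0.20 with medians and 5.84 in libraries under 20000000 counts, where 6-2 is the only type 2 neuron. A filter of 10 CPM, no filter, thinning, both scalings and equal weight for each first number gave a member median of 0.27 to 0.61. It was 0.04 with ratios of mean CPM, 0.05 without 6-2, 9-2 and 9-4, 0.09 in libraries under 20000000 counts and 0.13 with medians, so its distance from 0 depends on these choices. All 15 genes past 2-fold lost that size under at least 1 alternative.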
